A study of Mus musculus with 49 samples.

Results

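Expression of 10 genes that mark or steer liver endothelium was followed in mouse liver after an overdose of acetaminophen (APAP, paracetamol). They are the scavenger and lectin receptors Stab1, Stab2, Lyve1 and Clec4g, the adhesion and clotting genes Pecam1 and Vwf, the receptors Kdr, Tek and Eng, and the ligand Bmp2. The members are all probe sets whose annotation gives 1 of these symbols and no other, which made 13 probe sets among the 45037 measured. Of these, 5 had values in the control livers (Stab2, Pecam1, Tek, Bmp2 and 1 of the 2 probe sets of Eng), among 8137 probe sets with values on every array. The other 8 had values at 1 h, 12 h, 1 d, 2 d and 16 d only, and were compared with 1 h after the dose.

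Livers of male C57BL6/N mice were measured on Affymetrix mouse genome arrays. Treated mice were starved overnight, received 1 intraperitoneal dose of APAP at 300 mg/kg and were then fed freely. The 49 arrays comprised a control group (treatment given as none) and 3 groups on the first day (1 h, 6 h and 12 h), 3 in the early days (1 d, 2 d and 4 d) and 3 later (6 d, 8 d and 16 d). Each group had 5 arrays, save 4 at 6 h. The labels do not say whether control mice were starved or received vehicle, so the dose and the starvation before it cannot be told apart in comparisons with control. Arrays of a group carry replicate numbers, and whether each stands for its own mouse is not said, so p-values reflect the spread among these arrays alone, which may be technical. Values are log2 expression, and a difference of 1 is 2-fold. Differences carry ± the SE (standard error) from the limma fit, and a call means an adjusted p (Benjamini-Hochberg, over all probe sets of the comparison) under 0.05.

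The sinusoids of the liver are lined by a thin, porous endothelium that lets plasma reach the hepatocytes and removes waste from the blood. Its scavenger receptors take up hyaluronan, collagen fragments and modified lipoproteins. Its cells respond to vascular endothelial growth factor and angiopoietin, and they send Wnt, R-spondin, BMP and growth factor signals that shape hepatocyte zonation, iron uptake and regrowth. The toxic metabolite of APAP forms mainly in hepatocytes near the central vein, next to this endothelium. The arrays measured whole liver, so fewer cells of a type and less RNA per cell cannot be told apart.

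The promoters of 4 members are shown because their genes moved in opposite directions or at different times. Stab1 and Eng were called higher at 2 d, and Kdr was called lower at 1 d. Stab2 was called lower at 12 h and, like Stab1 and Eng, higher at 2 d (against control). Each line is the 250 bases before the gene's start, 5′ to 3′ along the gene, from RefSeq on GRCm38.p6. The capitals mark GGAA on either strand (GGAA or TTCC), the core of the sites bound by ETS factors such as Erg and Fli1, which endothelial cells express. The windows are chr14:31168642-31168891 on the minus strand for Stab1, chr2:32646345-32646594 on the plus strand for Eng, chr10:87007943-87008192 on the minus strand for Stab2 and chr5:75978456-75978705 on the minus strand for Kdr.
Stab1: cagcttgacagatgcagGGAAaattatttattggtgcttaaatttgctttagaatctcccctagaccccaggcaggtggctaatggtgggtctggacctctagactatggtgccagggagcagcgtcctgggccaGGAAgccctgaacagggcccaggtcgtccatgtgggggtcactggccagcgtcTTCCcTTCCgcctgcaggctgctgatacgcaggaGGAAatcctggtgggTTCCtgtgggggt
Eng: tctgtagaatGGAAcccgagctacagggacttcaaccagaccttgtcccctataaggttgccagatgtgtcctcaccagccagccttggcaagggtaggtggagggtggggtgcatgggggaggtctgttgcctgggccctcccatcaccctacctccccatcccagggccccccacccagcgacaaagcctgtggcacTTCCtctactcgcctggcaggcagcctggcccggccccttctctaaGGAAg
Stab2: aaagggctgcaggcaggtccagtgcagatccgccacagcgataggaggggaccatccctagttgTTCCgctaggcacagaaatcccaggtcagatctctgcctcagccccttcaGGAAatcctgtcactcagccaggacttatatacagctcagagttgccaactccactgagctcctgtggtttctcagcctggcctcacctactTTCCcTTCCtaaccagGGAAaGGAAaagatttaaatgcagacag
Kdr: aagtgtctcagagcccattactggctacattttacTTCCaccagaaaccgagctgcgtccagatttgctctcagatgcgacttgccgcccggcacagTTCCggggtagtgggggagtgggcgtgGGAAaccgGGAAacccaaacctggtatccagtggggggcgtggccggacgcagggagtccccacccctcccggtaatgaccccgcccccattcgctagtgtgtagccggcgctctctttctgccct

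Of the 10 genes, 6 had such a window: Stab1, Stab2, Clec4g, Kdr, Tek and Eng. GGAA occurred 6 times each before Stab1 and Stab2, 5 times before Clec4g, 4 times before Kdr, 3 times before Eng and 2 times before Tek. It is a frequent word, found in 93.4% of the 32851 windows of the same length with a median of 3 matches. GGGCGG, the GC box of Sp1, occurred 2 times before Kdr and in none of the other 5, against 32.7% of all windows. TATAAA, the TATA box, occurred once before Clec4g only, against 12.4% of all windows. AGATAA, a word bound by GATA factors, and TGANTCA, the word of AP-1, were in none of the 6, against 10.0% and 6.7% of all windows. Both strands were searched, and none of these words contains another. GC content was 57.2% before Stab1, 62.4% before Eng, 53.2% before Stab2 and 61.6% before Kdr, with a median of 52.4% over all windows.

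Lyve1, a hyaluronan receptor of sinusoidal and lymphatic endothelium that some macrophages also carry, had the widest range of the 10 genes on these 5 groups. Its main probe set (1429379_at, the one with the highest mean) read 6.57, 7.35, 6.85, 7.56 and 8.37 on the 5 arrays of 1 h. It read 8.65, 9.27, 9.57, 9.78 and 9.02 at 12 h, and 10.54, 9.79, 9.17, 9.44 and 9.81 at 1 d. Every array of 12 h and of 1 d lay above every array of 1 h. At 2 d the values were 7.69, 9.38, 7.66, 8.21 and 8.64, and at 16 d they were 6.26, 6.91, 6.63, 6.01 and 7.30. The 2 d arrays fell between, with 2 of 5 above all 1 h arrays, and no 16 d array reached any 2 d array.

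Lyve1 rose by 1.92 ± 0.34 at 12 h against 1 h (3.78-fold, limma adjusted p = 0.000458). At 1 d it was 2.41 ± 0.34 higher than at 1 h (5.3-fold, limma adjusted p = 2.24e-05). It then fell by 1.43 ± 0.34 from 1 d to 2 d (limma adjusted p = 0.012), a call lost without 1 d replicate 1 (-1.24, adjusted p = 0.0523), and was 1.69 lower at 16 d than at 2 d (difference -1.69 ± 0.34, limma adjusted p = 0.00112). The second probe set (1453128_at) gave +1.36 at 12 h, +1.93 at 1 d, -1.38 from 1 d to 2 d and -1.14 from 2 d to 16 d, all 4 called. The rise over 1 h still present at 2 d was less secure: +0.97 (limma adjusted p = 0.0436) for the main probe set and +0.55 (limma adjusted p = 0.174) for the second. The call at 2 d was lost without 1 h replicate 1, 2, 3 or 4, without 2 d replicate 2, 4 or 5, and without the 3 arrays of narrow spread (+0.85, adjusted p = 0.0954). It was also lost under quantile normalization (+0.82, adjusted p = 0.0773), ribosomal centring (+0.70, adjusted p = 0.0619), with array weights (+0.75, adjusted p = 0.0628) and with only these groups in the fit (adjusted p = 0.0781). At 16 d Lyve1 differed from 1 h by -0.72, with a 95% interval from -1.43 to -0.01 and an adjusted p of 0.52. In order of mean level, 1 d (9.75) and 12 h (9.26) did not differ beyond their spread, and 2 d (8.31), 1 h (7.34) and 16 d (6.62) each lay below the one before by more than the larger SD of the pair.

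Stab1 and Stab2, large scavenger receptors that clear hyaluronan and other ligands from blood, did not move together. Stab1 (1450199_a_at), which macrophages can also express, read 6.46, 6.60, 6.45, 6.66 and 6.87 at 1 h. It read 7.05, 6.99, 6.78, 6.99 and 7.18 at 1 d, and 7.34, 7.75, 7.14, 7.26 and 7.49 at 2 d. Every 2 d array was above every 1 h array, while 1 of the 5 arrays of 1 d was not. The rise over 1 h was 0.39 ± 0.11 at 1 d (limma adjusted p = 0.0134) and 0.79 ± 0.11 at 2 d (1.73-fold, limma adjusted p = 9.59e-06). Stab1 was 0.40 ± 0.11 higher at 2 d than at 1 d (limma adjusted p = 0.0293), and it fell by 0.71 ± 0.11 from 2 d to 16 d (limma adjusted p = 4.66e-05). The step from 1 d to 2 d lost its call without any of 1 d replicates 1, 2, 3 and 4 or 2 d replicates 2 and 5, under quantile normalization, with trend and robust variance, and with only these groups in the fit. At 12 h the difference from 1 h was 0.08, with a 95% interval from -0.15 to 0.30. Its 16 d values (6.70, 6.76, 6.77, 6.43 and 6.77) lay within or below the 1 h range, at a difference of 0.08.

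Stab2 (1419423_at) was measured in control livers, at 7.62, 7.73, 7.31, 7.58 and 7.70. Its 12 h arrays read 7.18, 6.90, 6.90, 7.19 and 7.34, and its 2 d arrays 8.12, 8.15, 7.86, 7.99 and 8.24. At 12 h, 4 of 5 arrays were below all control arrays, and at 2 d all 5 were above them. Stab2 fell by 0.49 ± 0.17 at 12 h (limma adjusted p = 0.0282) and rose by 0.48 ± 0.17 at 2 d against control (limma adjusted p = 0.0222). Against 1 h the 12 h arrays (1 h: 7.97, 7.85, 7.41, 7.89 and 8.17) did not overlap at all, with a fall of 0.76 ± 0.16 (limma adjusted p = 0.00236). At 1 d Stab2 was not called against 1 h. It passed there under quantile normalization (-0.44, adjusted p = 0.00493), ribosomal centring (-0.70, adjusted p = 0.000499) and array weights (-0.43, adjusted p = 0.0218). It also passed without the 3 arrays of narrow spread (adjusted p = 0.0239) and without 1 h replicate 3 (adjusted p = 0.046). From 1 d (7.06, 7.57, 7.28, 7.74 and 7.85) to 2 d Stab2 rose by 0.57 ± 0.16 (limma adjusted p = 0.0348), again without overlap. All arrays of 4 d, 6 d and 8 d were also above every control array, at differences of 0.35 (limma adjusted p = 0.171), 0.50 (limma adjusted p = 0.0525) and 0.40 (limma adjusted p = 0.155), none of them called, though 6 d passed under several alternatives (adjusted p = 0.0375 with the replicate block). The call at 12 h against control was lost without 12 h replicate 2 or 3 or control replicate 1, 2 or 5. The call at 2 d was lost without 2 d replicate 5 or control replicate 3. It was also lost under quantile normalization (difference 0.27) and under centring on ribosomal protein genes (0.23), while the 12 h falls kept their calls under both. The rise from 1 d to 2 d was lost without any of 7 arrays: 1 d replicates 1, 2 and 3 and 2 d replicates 1, 2, 4 and 5, and with only these groups in the fit (adjusted p = 0.0525). In order of level, 1 d and 12 h, the lowest pair, were the only neighbours that differed by more than the larger SD.

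Clec4g (LSECtin), a lectin of sinusoidal endothelium that binds viral glycoproteins and lymphocytes, had its lowest mean at 1 d. Its main probe set (1427428_at) read 8.79, 9.25, 9.07, 9.39 and 9.68 at 1 h and 8.45, 8.21, 9.20, 7.66 and 8.85 at 1 d. The groups overlapped, with 3 of the 5 arrays of 1 d below every 1 h array. It fell by 0.76 ± 0.26 at 1 d (limma adjusted p = 0.0468). That call was lost without 1 d replicate 1, 2 or 4, without 1 h replicate 2, 3, 4 or 5, without the 3 arrays of narrow spread (-0.80, adjusted p = 0.0508), and with only these groups in the fit (adjusted p = 0.0694). At 12 h, 2 d and 16 d the differences from 1 h were -0.05, -0.08 and 0.01, none called. The second probe set (1431575_at) read between 3.65 and 4.54 on the 25 arrays, close to the dimmest readings, and was called in none of these comparisons with limma.

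**Figure D1:**
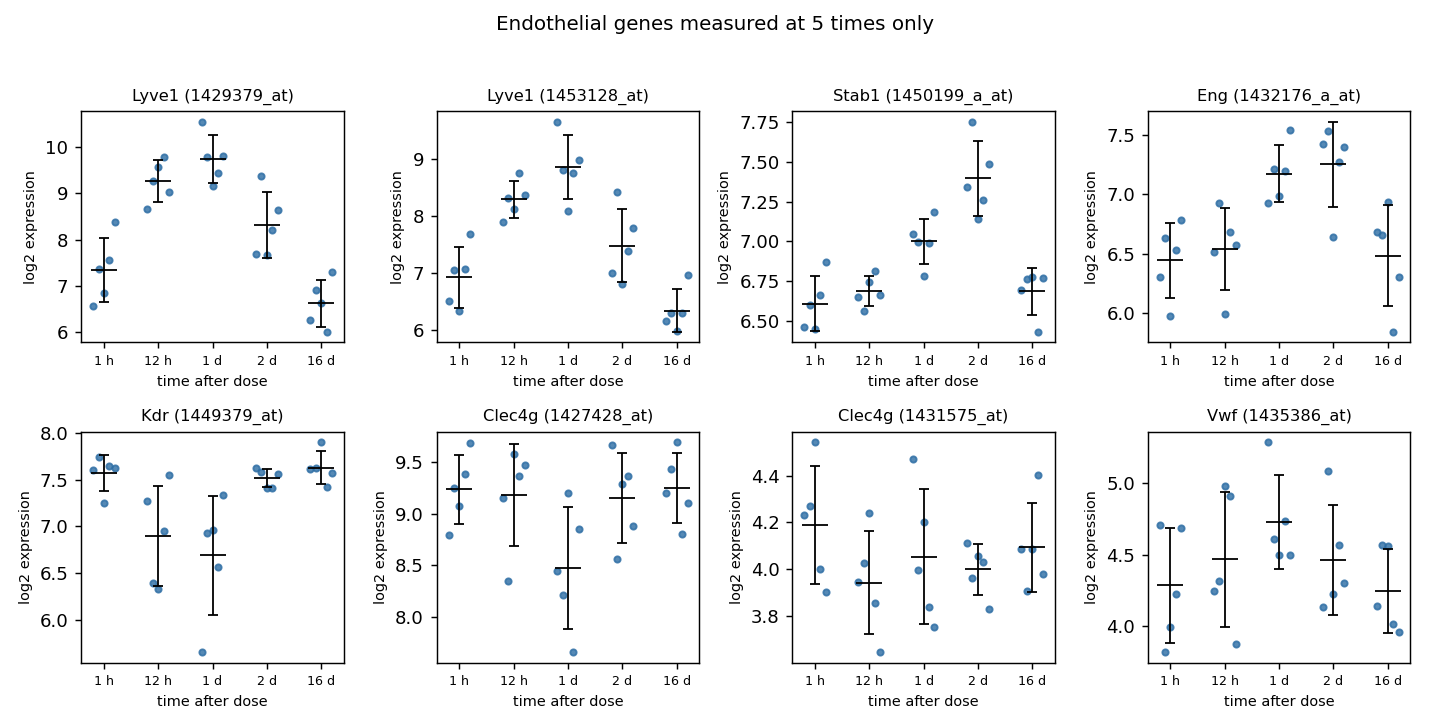
Log2 expression (vertical axis) of the 8 endothelial probe sets without control values at 5 times after the dose (horizontal axis), with 1 point per array and bars for the mean ± SD of 5 arrays. Lyve1 is highest at 12 h and 1 d, where every array lies above every 1 h array, Stab1 is highest at 2 d (mean 7.40) and Kdr lowest at 1 d (mean 6.69).

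Pecam1 (CD31), a junction protein of all endothelium that platelets and leukocytes also carry, had the largest rise among the 5 genes with control values. Its only probe set (1421287_a_at) read 5.26, 5.06, 4.98, 5.39 and 5.31 in control livers. It read 5.78, 6.07, 5.77 and 6.45 at 6 h, and 5.66, 5.67, 5.94, 6.02 and 5.97 at 12 h. Every array of both times lay above every control array. At 1 d the values were 6.93, 6.85, 6.09, 7.17 and 6.75, and at 2 d they were 6.50, 7.25, 5.96, 6.47 and 7.24. These were again all above the control arrays, and both group means were above those of every other time.

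Pecam1 rose by 0.82 ± 0.22 at 6 h (limma adjusted p = 0.0178) and by 0.65 ± 0.21 at 12 h (limma adjusted p = 0.0192). The rise was 1.56 ± 0.21 at 1 d (2.94-fold, limma adjusted p = 1.43e-07) and 1.48 ± 0.21 at 2 d (2.8-fold, limma adjusted p = 2.58e-07). From 2 d to 16 d it fell by 1.12 ± 0.23 (limma adjusted p = 0.0011). At 4 d, 6 d, 8 d and 16 d the differences from control were 0.34, 0.45, 0.13 and 0.37, none called, with limma adjusted p between 0.23 and 0.812. The call at 6 h, which has only 4 arrays, was lost without 6 h replicate 2 (adjusted p = 0.0524) or 5 (adjusted p = 0.137). In order of level, 1 d and 2 d did not differ beyond their spread, 2 d lay above 6 h and 12 h above 6 d by more than the larger SD, and no other neighbours did.

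Vwf, the clotting factor that tethers platelets and is made mainly by larger vessels and megakaryocytes, read low throughout. Its probe set (1435386_at) had means between 4.25 at 16 d and 4.73 at 1 d. The largest difference from 1 h was 0.44 at 1 d (95% interval -0.03 to 0.90, limma adjusted p = 0.187). The 1 d arrays (5.28, 4.61, 4.50, 4.74 and 4.50) overlapped those of 1 h (4.71, 3.82, 3.99, 4.22 and 4.69).

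**Figure D2:**
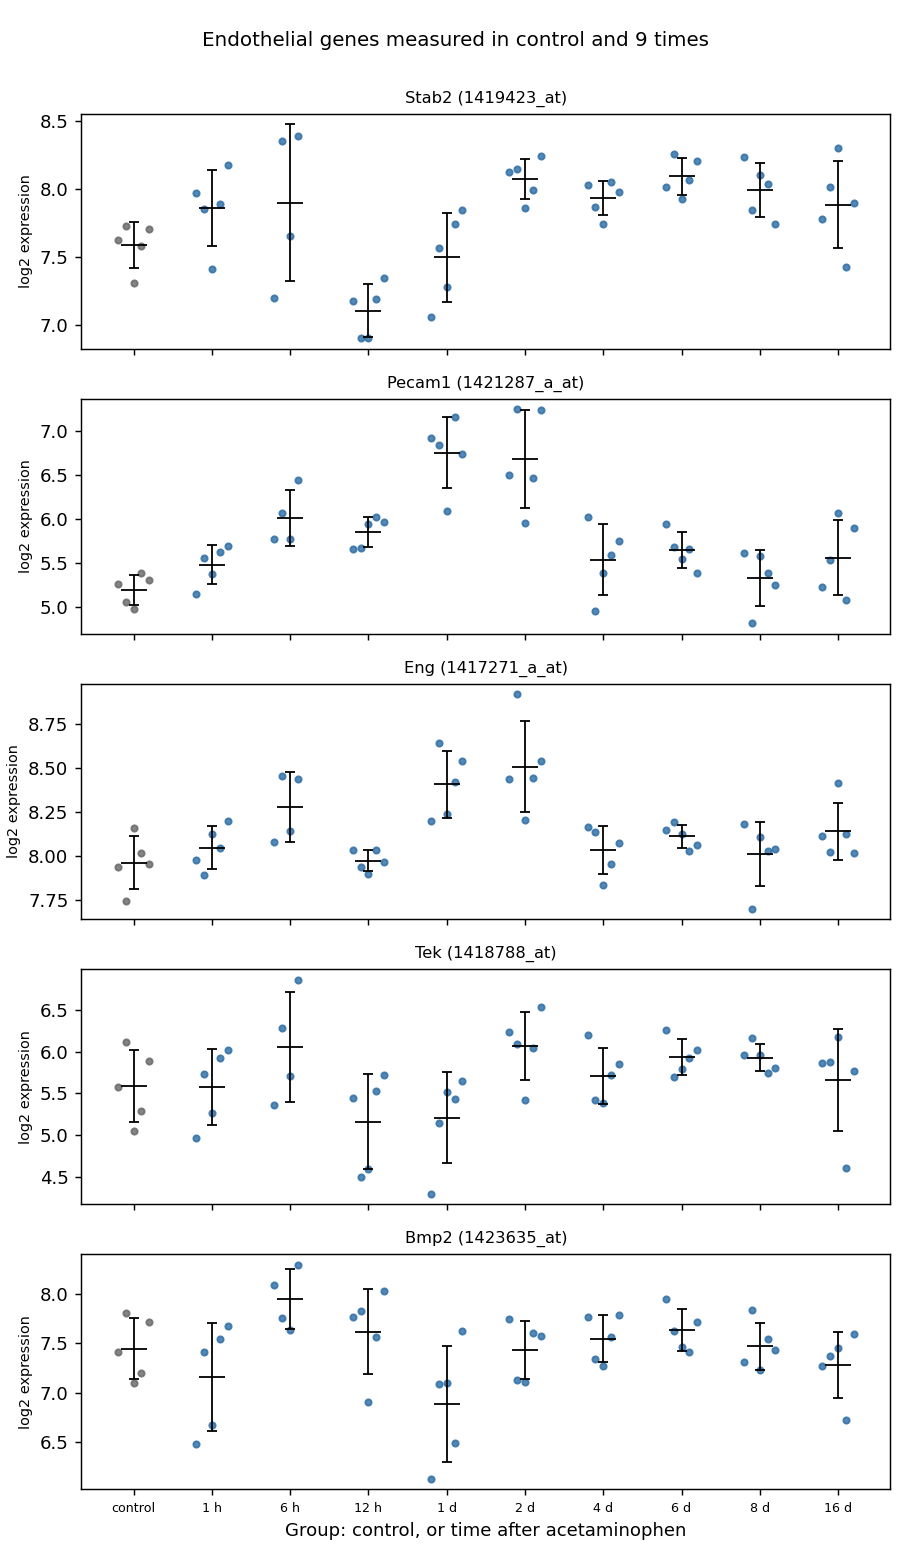
Log2 expression (vertical axis) of the 5 endothelial probe sets with control values, in control livers and at 9 times after acetaminophen (horizontal axis), with 1 point per array and bars for the mean ± SD of 4 or 5 arrays. Pecam1 stands above all control arrays from 6 h to 2 d, Eng at 1 d and 2 d, and Stab2 dips at 12 h (mean 7.10), while the Tek and Bmp2 arrays overlap those of control at every time.

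Eng (endoglin), the co-receptor for BMP9 and TGF beta, was higher at 1 d and 2 d. Its main probe set (1417271_a_at) read 7.94, 7.75, 8.16, 8.02 and 7.95 in control livers. It read 8.20, 8.64, 8.24, 8.42 and 8.54 at 1 d, and 8.44, 8.92, 8.20, 8.44 and 8.54 at 2 d. All arrays of both times were above all control arrays. The rise was 0.45 ± 0.11 at 1 d (1.36-fold, limma adjusted p = 0.00105) and 0.55 ± 0.11 at 2 d (1.46-fold, limma adjusted p = 6.53e-05). The second probe set (1432176_a_at), compared with 1 h, was 0.73 higher at 1 d and 0.81 higher at 2 d, and the main one 0.36 and 0.46, all called. Both probe sets fell from 2 d to 16 d, by 0.37 (limma adjusted p = 0.0254) and 0.77 (limma adjusted p = 0.0106). The 1 d call against control was lost under ribosomal centring (0.16, adjusted p = 0.213), and the main probe set's 1 d and 2 d calls against 1 h under both scalings. The second probe set's call at 1 d was lost under ribosomal centring (0.39, adjusted p = 0.0609). The main probe set's call at 1 d against 1 h was also lost without 1 d replicate 2 or 5 or 1 h replicate 1 or 2. The main probe set's fall to 16 d was lost under both scalings, with only these groups in the fit, and without 16 d replicate 2 or 5 or 2 d replicate 2 or 5, while that of the second was kept under both scalings. No neighbours in the order of the main probe set's 10 means differed by more than the larger SD.

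Kdr (VEGFR2), the main receptor for VEGF-A, fell while Eng rose. Its probe set (1449379_at) read 7.61, 7.74, 7.25, 7.64 and 7.63 at 1 h and 5.66, 6.93, 6.96, 6.57 and 7.33 at 1 d. 4 of the 5 arrays of 1 d were below every 1 h array, and replicate 1 was the lowest by far. Kdr fell by 0.88 ± 0.23 at 1 d (1.84-fold, limma adjusted p = 0.00922), and this call was kept under both scalings and without any 1 array. At 12 h (7.27, 6.39, 6.33, 6.95 and 7.55) the difference was -0.67 ± 0.23 (limma adjusted p = 0.0549), not called. It passed the threshold under quantile normalization (-0.72, adjusted p = 0.0164), ribosomal centring (-0.89, adjusted p = 0.00528), array weights (-0.65, adjusted p = 0.0243), 1 probe set per gene (adjusted p = 0.0444) and the filter on dim probe sets (adjusted p = 0.0459). It also passed without the 3 arrays of narrow spread (-0.76, adjusted p = 0.0418) and without 12 h replicate 1 or 5 or 1 h replicate 3. At 2 d the values (7.62, 7.59, 7.41, 7.41 and 7.56) were all above those of 1 d and differed from 1 h by -0.05. The rise from 1 d to 2 d was 0.83 ± 0.23 (limma adjusted p = 0.0345), and it was lost without 1 d replicate 1 (0.57, adjusted p = 0.126) or 4 or any of the 2 d arrays, and with only these groups in the fit (adjusted p = 0.0892). In order of level, 2 d lay above 12 h by more than the larger SD, and no other neighbours did.

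Tek (TIE2), the angiopoietin receptor, and Bmp2, the BMP ligand by which sinusoidal endothelium raises hepatocyte hepcidin, were called at no time in the main limma fit. Tek (1418788_at) read 5.57, 6.12, 5.05, 5.29 and 5.89 in control livers, and its group means ran from 5.16 at 12 h to 6.07 at 2 d. Its differences from control were -0.43 at 12 h, -0.38 at 1 d and 0.48 at 2 d, with limma adjusted p of 0.301, 0.344 and 0.19. Under ribosomal centring Tek at 1 d passed against control (-0.66, adjusted p = 0.0319) and against 1 h (-0.71, adjusted p = 0.037). On that scale 49.5% and 63.2% of all probe sets were lower. The rise of Tek from 1 d to 2 d passed with array weights only (0.84, adjusted p = 0.0425). Bmp2 (1423635_at) read 7.41, 7.81, 7.10, 7.20 and 7.71 in control livers and 6.13, 7.09, 7.10, 6.49 and 7.62 at 1 d. Its difference at 1 d was -0.56 ± 0.23 (limma adjusted p = 0.0581), with 3 of 5 arrays below all controls. That of 6 h (8.09, 7.75, 7.64 and 8.29) was 0.50 (limma adjusted p = 0.311). Bmp2 at 1 d passed the threshold under quantile normalization (-0.69, adjusted p = 0.00473), ribosomal centring (-0.85, adjusted p = 0.0017), without dim probe sets, with the replicate block (adjusted p = 0.0282), without the 3 arrays of narrow spread, and without 1 d replicate 5 or control replicate 3. Against 1 h it passed at 1 d under ribosomal centring (-0.61, adjusted p = 0.0432). In order of level, Bmp2 at 6 h lay above the next time, 6 d, by more than the larger SD, and for Tek no neighbours did.

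The counts of members called were read against the share of all probe sets called. Against control, of 5 member probe sets, 1 was called higher at 6 h, where 3.61% of all probe sets were higher and 1.81% lower. At 12 h 1 was higher and 1 lower, against 11.5% and 11.3%. At 1 d 2 were higher and none lower, against 16% and 12.8%, and at 2 d 3 were higher and none lower, against 19.5% and 12.3%. None was called by limma at 1 h (0.295% higher, 0.283% lower), 4 d (9.07% and 6.16%), 6 d (5.06% and 2.41%), 8 d (4.5% and 2.69%) or 16 d (2.89% and 3%). At an unadjusted p under 0.05 there were 0 at 1 h, 1 at 4 d (Stab2), 2 at 6 d (Stab2 and Pecam1), 1 at 8 d (Stab2) and 0 at 16 d. With 5 members, 1 higher and 1 lower at 12 h is near the share of all probe sets. At 2 d the 3 called higher were more than that share. Of these 3, Stab2 lost its call under quantile normalization and under ribosomal centring. The members were chosen with earlier results of these data known, so these counts are a description only.

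Against 1 h, of 13 member probe sets, 2 were called higher and 1 lower at 12 h, where 6.3% of all probe sets were higher and 7.41% lower. At 1 d 6 were higher and 2 lower, against 8.8% and 9.16%, and at 2 d 5 were higher and none lower, against 10.9% and 12.1%. At 16 d limma called none, against 0.899% and 0.799%, and 1 (Lyve1, main probe set) had an unadjusted p under 0.05. From 1 d to 2 d 3 rose and 2 fell, against 4% and 1.59%, and from 2 d to 16 d 6 fell and none rose, against 9.04% lower and 7.25% higher. The counts include 2 probe sets each of Lyve1, Eng and Clec4g, which share their target. Counted over 10 genes by main probe set, 4 were higher and 2 lower at 1 d (Lyve1, Pecam1, Stab1 and Eng against Kdr and Clec4g), and 4 were higher at 2 d. Over all genes counted so, 11.2% were higher and 10.9% lower at 1 d, and 14.3% and 12.5% at 2 d.

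**Figure D3:**
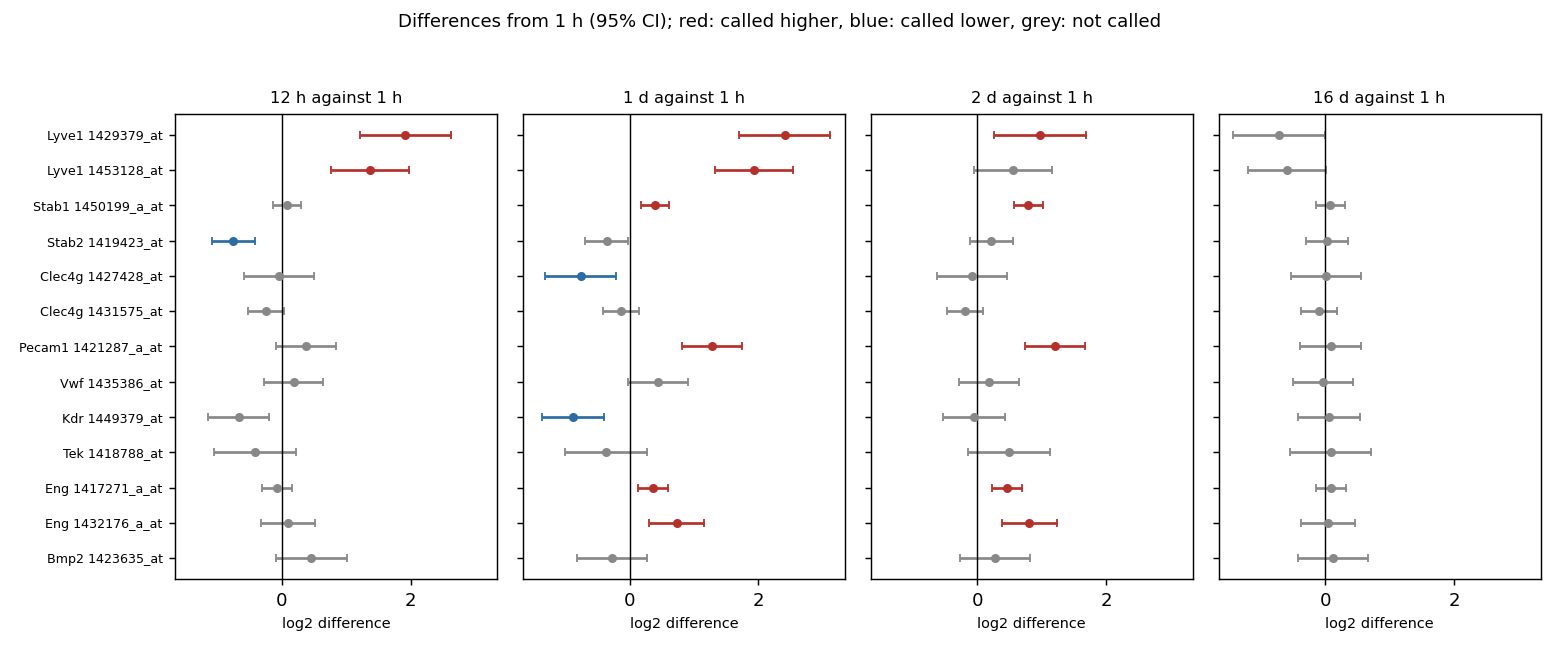
Log2 difference from 1 h (horizontal axis) with its 95% interval for the 13 member probe sets (vertical axis) at 12 h, 1 d, 2 d and 16 d, coloured by limma's call. The members spread to both sides at 1 d, from Lyve1 at 2.41 to Kdr at -0.88, and none is called at 16 d.

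The size of these counts depended on the scale. Centring each array on its cytosolic ribosomal protein genes moved the median difference of all probe sets against control to -0.18 at 12 h, -0.31 at 1 d and -0.28 at 2 d. Against 1 h it moved to -0.29 at 12 h, -0.41 at 1 d and -0.37 at 2 d, and for 16 d against 2 d to 0.36. On that scale the members called at 1 d against control were 1 higher and 3 lower (Stab2, Tek and Bmp2), where 8.44% of all probe sets were higher and 49.5% lower. Against 1 h they were 2 higher and 4 lower at 12 h (all probe sets 4.45% and 44%), 3 higher and 6 lower at 1 d (4.53% and 63.2%), and 3 higher and 1 lower at 2 d (the dim probe set of Clec4g; 6.91% and 58.5%). For 16 d against 2 d they were 1 higher and 5 lower (57.1% and 5.58%). Under quantile normalization the split was 2 higher and 1 lower at 1 d against control, against 15.3% and 18.1% of all probe sets. It was 2 and 2 at 12 h (7.71% and 8.27%) and 5 and 3 at 1 d (9.97% and 9.63%) against 1 h, and 2 and 2 from 1 d to 2 d (4.49% and 3.03%). Both scalings kept the calls of Pecam1 at 12 h, 1 d and 2 d against control, Lyve1 at 12 h and 1 d, Stab1 at 2 d, Stab2 at 12 h and Kdr at 1 d. The rise of Stab1 at 1 d was lost on the ribosomal scale (0.06, adjusted p = 0.62).

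Arrays and tissue were checked once. Array means over the shared probe sets lay between 6.03 and 6.33, and the spread of values within an array (SD) was 2.40 to 2.48 on 46 arrays, with 2.25 to 2.26 on 3 of narrower spread (replicate 3 of control, replicate 3 of 1 h and replicate 4 of 16 d). The highest correlation of any pair of arrays was 0.996, so no array was a copy of another. Hepatocyte markers (6 of 8 measured, among them plasma protein genes) had a mean of 13.3 to 13.7 on every complete array, so the defining cells of the labelled tissue were present. The dimmest 25% of probe sets had means under 3.57 on the complete arrays, and Vwf and the second probe set of Clec4g lay not far above it.

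Other endothelial genes were followed through lists that hold none of the 10, and on the sinusoidal and the pan-endothelial list more genes were called higher at 2 d than at 1 d. Of 16 other sinusoidal genes measured on the complete arrays, 3 were called higher and 3 lower at 1 d, and 8 higher and 1 lower at 2 d, against 1 h. With 1 probe set per gene, 11.2% of 18193 genes were higher and 10.9% lower at 1 d, and 14.3% and 12.5% at 2 d. The list's median difference was 0.06 at 1 d and 0.65 at 2 d, against -0.07 and -0.08 for all genes. At 2 d the protease gene Lgmn rose by 2.23 ± 0.20 (limma adjusted p = 1.73e-08) and the fatty acid and thrombospondin receptor Cd36 by 1.80 ± 0.22 (limma adjusted p = 1.36e-06), both also expressed by macrophages. Ehd3, an endocytic recycling gene of sinusoidal endothelium, fell by 0.69 ± 0.20 (limma adjusted p = 0.0171). Compared directly, 6 of the 16 were higher and 1 lower at 2 d than at 1 d, where 1057 of all 18193 genes were higher and 333 lower. On the ribosomal scale the list had 2 higher and 7 lower at 1 d, and 7 higher and 4 lower at 2 d, where 5.85% and 59.9% of all genes were higher and lower at 1 d and 9.22% and 52.9% at 2 d.

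Against control, 7 of those genes were measured. At 1 d none was called higher and 3 lower (Dnase1l3, Ehd3 and Gata4, at -0.67, -0.61 and -0.43), and at 2 d 3 were higher and 1 lower. With 1 probe set per gene, 16.2% of 5976 genes were higher and 13.4% lower at 1 d, and 19.8% and 12.6% at 2 d. The receptor gene Gpr182 rose by 1.06 ± 0.20 (limma adjusted p = 5.73e-05) at 2 d and Cd36 by 1.75 ± 0.25 (limma adjusted p = 3.24e-07). Gata4, a transcription factor that sets sinusoidal identity, was 0.33 ± 0.08 below control at 2 d (limma adjusted p = 0.00246). This was not particular to 1 d and 2 d. It was also called lower at 12 h, 4 d, 6 d, 8 d and 16 d (-0.27, -0.40, -0.35, -0.36 and -0.30). At 1 h and 6 h the differences were -0.31 and -0.21, not called. Under quantile normalization 3 were higher and 3 lower at 2 d (16.9% and 24.2% of all genes), and under ribosomal centring 3 and 4 (12.6% and 44.8%).

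Of 30 genes of endothelium in general, 9 were called higher and 1 lower at 1 d against 1 h, and 12 higher and none lower at 2 d, with medians of 0.20 and 0.44. Of all genes, 11.2% were higher and 10.9% lower at 1 d, and 14.3% and 12.5% at 2 d. Compared directly, 7 of the 30 were higher at 2 d than at 1 d and none lower, against 1057 and 333 of all 18193 genes. On the ribosomal scale the count at 1 d was 3 higher and 9 lower, where 5.85% and 59.9% of all genes were higher and lower. At 2 d it was 11 and 3, against 9.22% and 52.9%. The largest rises at 2 d were those of the migration gene Ecscr (1.98 ± 0.19, limma adjusted p = 7.91e-08) and of Emcn, a surface sialomucin of capillaries (1.24 ± 0.27, limma adjusted p = 0.00191). Against control, 4 of 17 were higher at 1 d and 6 at 2 d, none lower. Of all genes, 16.2% were higher and 13.4% lower at 1 d, and 19.8% and 12.6% at 2 d. At 2 d Plvap, which forms the diaphragms of fenestrae, rose by 1.47 ± 0.19 against control (limma adjusted p = 3.11e-08) and the ETS factor gene Fli1 by 1.07 ± 0.19 (limma adjusted p = 1.19e-05). On the ribosomal scale 1 was higher and 3 lower at 1 d (8.84% and 49.9% of all genes), and 4 were higher at 2 d (12.6%).

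Ligands and partners of Kdr and Tek were among the larger changes. Of 17 VEGF, angiopoietin and Notch genes, 6 were called higher and none lower at 1 d, and 5 higher and 1 lower at 2 d, against 1 h. Of all genes, 11.2% were higher and 10.9% lower at 1 d, and 14.3% and 12.5% at 2 d. Ribosomal centring gave 3 higher and 3 lower at 1 d (5.85% and 59.9% of all genes), and 4 and 3 at 2 d (9.22% and 52.9%). Quantile normalization gave 9 and none at 1 d (12.3% and 12.8% of all genes). Esm1, a proteoglycan of VEGF-stimulated tip cells, rose by 4.27 ± 0.68 at 1 d (limma adjusted p = 8.28e-05) from a mean of 2.67, among the dimmest readings, at 1 h. Angpt2, the context-dependent Tek ligand, rose by 1.82 ± 0.25 at 1 d (limma adjusted p = 1.17e-05). Jag1, a Notch ligand, rose by 1.58 ± 0.25 at 2 d by its main probe set (limma adjusted p = 7.06e-05). The Jag1 probe set with control values did not rise, with means of 4.98 at 1 h and 4.82 at 2 d. Its difference from control at 2 d was -0.12 (limma adjusted p = 0.464). Angpt1, the activating Tek ligand, was called lower at 2 d against 1 h (limma adjusted p = 0.0464), but its mean of 3.53 there lay among the dimmest 25% of probe sets and 3.89 at 1 h not far above them, and it was not called against control (adjusted p = 0.139). Against control, Vegfa rose by 1.53 ± 0.22 at 12 h (limma adjusted p = 7.63e-07) and fell by 0.62 ± 0.22 at 2 d (limma adjusted p = 0.0252). The lymphangiogenic ligand Vegfc rose by 0.59 ± 0.19 at 2 d against control (limma adjusted p = 0.0146).

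Of 18 genes of BMP and TGF beta signalling, the pathway of Eng and Bmp2, 10 were called higher at 1 d and 11 at 2 d against 1 h, none lower. Of all genes, 11.2% were higher and 10.9% lower at 1 d, and 14.3% and 12.5% at 2 d. Ribosomal centring gave 8 higher and 3 lower at 1 d (5.85% and 59.9% of all genes), and 8 and 2 at 2 d (9.22% and 52.9%). The target gene Id1 rose by 2.33 ± 0.26 at 2 d (limma adjusted p = 4.51e-07) and Id3 by 1.54 ± 0.36 (limma adjusted p = 0.00315). The 1 h reference lay below control for some of them: Id3 fell by 1.96 ± 0.32 at 1 h (limma adjusted p = 0.000178) and Id2 by 1.22 ± 0.21 (limma adjusted p = 0.000358). For Id3 this was not particular to 1 h. It was also called lower than control at 4 d, 6 d, 8 d and 16 d, at -1.51, -1.73, -1.63 and -1.57. Against control, 1 of 12 measured genes was higher at 1 d and 3 at 2 d, none lower, among them Tgfb1 (0.80 ± 0.17, limma adjusted p = 0.000212) and the inhibitory Smad6 (0.80 ± 0.24, limma adjusted p = 0.00909). Of all genes, 16.2% were higher and 13.4% lower than control at 1 d, and 19.8% and 12.6% at 2 d. Ribosomal centring gave 1 higher and 2 lower at 1 d (8.84% and 49.9% of all genes), and 3 and 3 at 2 d (12.6% and 44.8%).

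Endothelial Wnt signals and their hepatocyte targets moved to both sides. Of 7 genes, 1 was called higher and 3 lower at 1 d against 1 h, and 2 each at 2 d. Of all genes, 11.2% were higher and 10.9% lower at 1 d, and 14.3% and 12.5% at 2 d. Wnt2, a Wnt ligand of central endothelium, fell by 1.28 ± 0.22 at 1 d (limma adjusted p = 0.000171), and the Wnt target and receptor gene Lgr5 fell by 1.81 ± 0.23 (limma adjusted p = 4.24e-06). Rspo3, the R-spondin of central vein endothelium, rose by 0.82 ± 0.24 at 1 d (limma adjusted p = 0.0191), a call not kept on the ribosomal scale. On that scale none was higher and 3 were lower at 1 d (5.85% and 59.9% of all genes), and 2 higher and 4 lower at 2 d (9.22% and 52.9%). Hgf, the hepatocyte growth factor, which stellate cells also make, rose by 0.71 ± 0.15 at 2 d (limma adjusted p = 0.00137).

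Of 9 genes of activated endothelium, 3 were called higher at 1 d and 4 at 2 d against 1 h, none lower. Of all genes, 11.2% and 14.3% were higher, and 10.9% and 12.5% lower. On the ribosomal scale 1 was higher and 2 lower at 1 d (5.85% and 59.9% of all genes), and 4 and 2 at 2 d (9.22% and 52.9%). Against control, 4 of 6 were higher at 1 d and 3 at 2 d, where 16.2% and 19.8% of all genes were. On the ribosomal scale 2 were higher and 1 lower than control at 1 d (8.84% and 49.9%), and 3 and 1 at 2 d (12.6% and 44.8%). Procr, the endothelial protein C receptor, rose by 3.91 ± 0.31 at 1 d against control (limma adjusted p = 6.88e-13) and by 2.01 ± 0.31 at 2 d (limma adjusted p = 1.88e-06). Plat, the tissue plasminogen activator, rose by 0.88 ± 0.23 at 1 d (limma adjusted p = 0.00303) and by 2.97 ± 0.23 at 2 d (limma adjusted p = 8.42e-14).

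**Figure D4:**
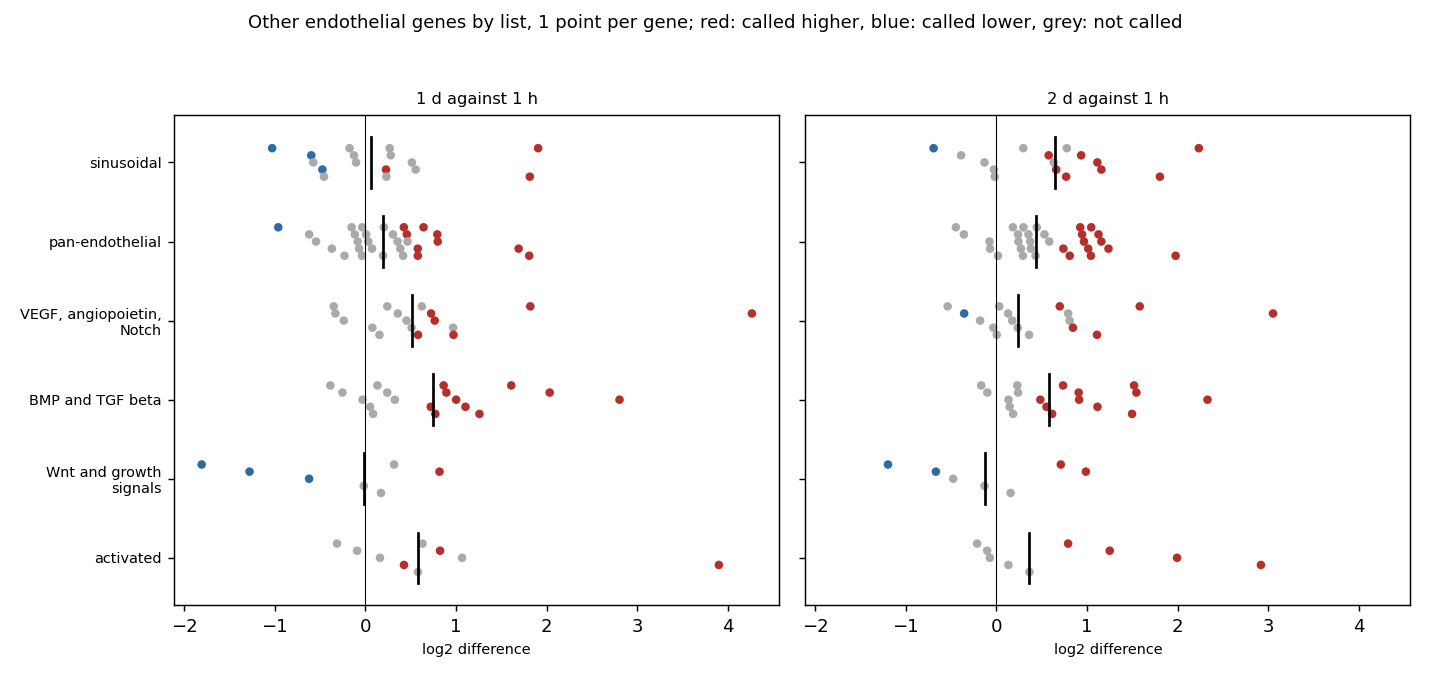
Log2 difference from 1 h (horizontal axis) of other endothelial genes at 1 d and 2 d, by list (vertical axis), with 1 point per gene coloured by limma's call and a black line at the list's median. The pan-endothelial median is 0.20 at 1 d and 0.44 at 2 d, and the sinusoidal one 0.06 and 0.65.

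Markers of other cells moved over the same days as Lyve1, Stab1 and Pecam1. Recruited monocyte and macrophage markers (6 of 7 measured) had a mean that ran from 5.73 to 6.10 on the 1 h arrays, 6.69 to 7.69 at 12 h, 7.24 to 7.82 at 1 d, 7.53 to 8.36 at 2 d and 5.51 to 6.33 at 16 d. Of these, 4 were called higher at 1 d and 4 at 2 d against 1 h, none lower. Over all genes, 11.2% were higher and 10.9% lower at 1 d, and 14.3% and 12.5% at 2 d. Kupffer cell markers (6 of 6 measured) ran from 8.17 to 8.64 at 1 h, 8.23 to 8.50 at 1 d and 8.39 to 8.97 at 2 d, with 1 higher and 2 lower at 1 d and 3 higher and 1 lower at 2 d. Platelet markers (7 of 7 measured) ran from 5.32 to 5.47 at 1 h, 5.44 to 6.33 at 12 h, 5.49 to 6.30 at 1 d and 5.63 to 5.90 at 2 d, with Pf4 1.93 and Ppbp 2.08 higher at 1 d. Others on the list moved less between 1 h and 1 d, by their probe sets with control values. Itga2b had means of 6.70 at 1 h and 6.69 at 1 d, and Gp9 5.68 and 5.74. Gp5 had 4.80 and 4.99, and Gp1bb 3.57 and 4.05. Macrophages can carry Lyve1, Stab1 and Pecam1, and platelets and leukocytes Pecam1, and the part of these cells in the members' changes was not tested.

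Neutrophil markers (4 of 6 measured) ran from 4.58 to 5.54 at 1 h, 5.77 to 9.07 at 12 h, 6.28 to 8.58 at 1 d and 5.70 to 6.62 at 2 d. Stellate cell and fibroblast markers (10 of 10 measured) ran from 6.71 to 7.41 at 1 h, 6.92 to 7.62 at 1 d and 8.07 to 8.58 at 2 d. Smooth muscle and pericyte markers (5 of 5 measured) ran from 4.61 to 5.16 at 1 h and 5.47 to 5.66 at 2 d. This rise was mainly that of Acta2, which differed from control by 3.95 at 2 d. There Myh11 differed by -0.30, Cnn1 by -0.01, Notch3 by 0.29 and Cspg4 by 0.17. Lymphatic vessel markers (3 of 4 measured) ran from 6.39 to 6.98 at 1 h, 6.41 to 7.39 at 1 d and 6.38 to 7.05 at 2 d. Among them Reln is also on the stellate cell list, so this mean does not stand for lymphatic vessels alone. Bile duct markers (4 of 5 measured) ran from 4.53 to 4.75 at 1 h and 4.98 to 5.70 at 1 d. Lymphocyte markers (5 of 7 measured) and erythrocyte markers (2 of 5 measured) were lower at 2 d (4.23 to 4.50 and 5.11 to 5.50) than at 1 h (4.61 to 4.75 and 5.98 to 6.23). Hepatocyte markers (6 of 8 measured) ran from 13.71 to 13.74 at 1 h, 13.31 to 13.57 at 1 d and 13.43 to 13.69 at 2 d, so all arrays of both later times lay below all 1 h arrays. Of these, 2 were called lower at 1 d and 1 at 2 d, where 10.9% and 12.5% of all genes were. Among them was Cyp2e1, the enzyme that makes the toxic metabolite of APAP, at -0.87 and -1.01. Several of these lists thus moved between 1 h and 2 d along with the endothelial genes.

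In the table with control values, the 4 measured recruited macrophage markers had a mean of 4.93 to 5.08 on the control arrays and 4.96 to 5.45 at 6 h. They reached 6.13 to 7.77 at 12 h, 6.78 to 7.58 at 1 d and 7.10 to 8.45 at 2 d, and were at 5.77 to 7.12 at 4 d. The 5 platelet markers there were at 4.89 to 5.23 in control livers, 4.84 to 6.45 at 6 h, 5.02 to 6.03 at 1 d and 4.90 to 5.15 at 2 d. At 6 h Ppbp (2.32), Gp1bb (0.88), Itga2b (0.46) and Gp5 (0.46) were called higher than control. Gp9 (0.23) was not, and 3.61% of all probe sets were called higher. The 2 neutrophil markers were at 4.84 to 5.81 in control livers, 6.03 to 6.82 at 6 h, 6.36 to 8.43 at 1 d and 5.78 to 6.99 at 2 d. Only S100a8 rose: it differed from control by 4.63 at 1 d and 2.82 at 2 d, and Cxcr2 by -0.03 and -0.22. The 2 hepatocyte markers were at 13.83 to 13.90 in control livers, 13.26 to 13.56 at 1 d and 13.15 to 13.60 at 2 d. The part of any of these cells in the changes of Pecam1 and Eng was not tested.

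**Figure D5:**
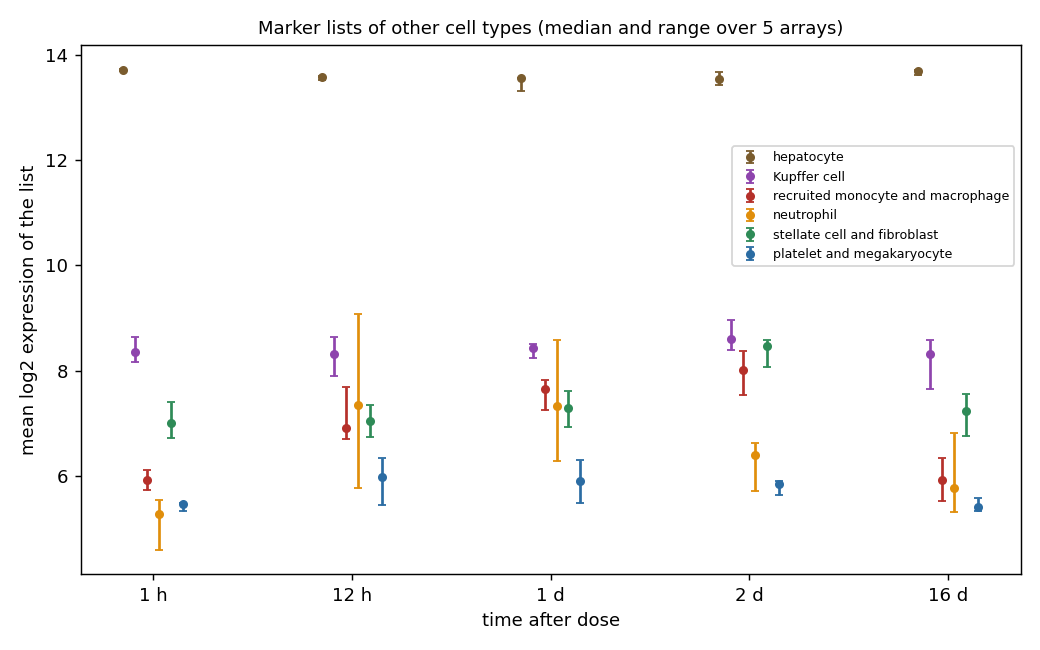
Mean log2 expression of marker lists of other cell types (vertical axis) at 5 times after the dose (horizontal axis), with the median and the range over 5 arrays. Recruited macrophage markers are highest at 2 d (7.53 to 8.36), neutrophil markers are widest at 12 h (5.77 to 9.07), and hepatocyte markers are lower at 1 d (13.31 to 13.57) than at 1 h (13.71 to 13.74).

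The gene outside the members whose group means lay nearest was sought among those called by limma's F test in the same table. The measure is the mean absolute difference of group means, each centred on the first group. Over the 10 groups, Tek was nearest to Tie1 (0.0861), the orphan receptor of the same family, and Pecam1 to Rhoj (0.118), an endothelial small GTPase gene. At 2 d Tek was 0.48 and Tie1 0.47 above control, and at 1 d Pecam1 was 1.56 and Rhoj 1.53 above it. Stab2 was nearest to Prdx4 (0.0911), Eng to Snrpb (0.0650) and Bmp2 to Rit1 (0.148). At 1 d, however, Bmp2 differed from control by -0.56 and Rit1 by 0.26, in opposite directions. Over the 5 groups of the complete arrays, Lyve1 was nearest to Cdkn1a (0.132), the cell cycle inhibitor p21, at 2.41 and 2.21 above 1 h on 1 d. There Stab1 was nearest to Pilrb1 (0.0151), Kdr to Ap3m1 (0.0302) and Clec4g to Mavs (0.0356). Tie1 and Rhoj were not the nearest on these groups, where Tek was nearest to Cbx5 (0.0110) and Pecam1 to Dubr (0.0364). Stab2 was nearest there to Atrnl1 (0.0264), Eng to Trappc1 (0.0208), Bmp2 to Gnpnat1 (0.0652) and Vwf to Set (0.0163). These are the nearest of 3946 and 11518 candidate probe sets, and with 10 or 5 group means close matches among so many are a description only.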

How the data were processed

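Whole mouse liver was measured on 49 Affymetrix arrays. The deposited values are log2 expression per probe set, made with the oligo package 1.52.0 and RMA (background correction, quantile normalization and probe summary), per the submitters' processing notes. No source used here states whether all arrays were normalized together. Of the arrays, 25 held all 45101 rows and the other 24 only the first part, so 8137 probe sets had values on every array. The complete arrays kept 45037 probe sets after 64 Affymetrix control probe sets were left out. GEO's platform annotation gave 1 symbol for 7370 of the 8137, several for 223 and none for 544, and for the 45037 it gave 34945, 932 and 9160.

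Values were used as deposited. limma 3.58.1 in R 4.3.3 fitted 1 mean per group to all arrays of a table (lmFit, eBayes), with Benjamini-Hochberg adjustment over all probe sets. The fit was tested on simulated data. The probe set with the highest mean stood for its gene. In the order of levels, neighbours were set against the larger SD of the pair. Of each gene list, the 2 called genes with the largest rise and the 2 with the largest fall could be named. This held at 2 d and at the time with most calls. Genes listed beside a count, the platelet genes Pf4 and Ppbp, and other single markers of other cell types were named after their values were seen. The members and lists were chosen with earlier results of these data known. Replicate numbers were not treated as pairs, since in none of the comparisons did every same-numbered pair correlate above 0.1, and entered no main fit. This rule cannot exclude an effect shared by arrays of the same number. At 6 h against control, 4 of 4 pairs correlated best with their own number, against 0 to 3 of 5 in the other comparisons. Whether replicate numbers mark a batch was not tested. Alternatives were 1 probe set per gene, a filter on dim probe sets (lowest 25%), trend and robust variance, array weights, quantile normalization, ribosomal centring, only the groups compared, a replicate block, and leaving out arrays. Arrays have no read depth. Their number limits the precision.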

Additional observations from a re-analysis of the deposited data

Results flagged for a closer look

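In 90 groups of 4 or 5 arrays, the highest or lowest value of a member probe set was tested against the spread of the others, and 5 stood apart by Dixon's 95% criterion, where chance gives about 1 in 20. Kdr on 1 h replicate 3 was low at 7.25, with the nearest array at 7.61. Stab1 on 16 d replicate 4 was low at 6.43, with the nearest at 6.70, and Tek on the same array was low at 4.60, with the nearest at 5.77. Both arrays are among the 3 of narrow spread. The second probe set of Eng on 2 d replicate 3 was low at 6.64, with the nearest at 7.27. The main probe set of Eng on 16 d replicate 3 was high at 8.42, with the nearest at 8.13.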

How the results depend on the processing

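No difference of a main probe set changed sign as a call under any alternative run. The count of members called moved by more than 1.5 times in these cases. At 6 d against control it went from 0 to 1 with 1 probe set per gene, without dim probe sets, with array weights, under ribosomal centring and with the replicate block (Stab2 each time), and to 2 with only the 2 groups compared. At 6 h it went from 1 to 2 with array weights and without the arrays of narrow spread (Eng added). At 1 d against control it went from 2 to 4 under ribosomal centring. Against 1 h, it went from 3 to 6 at 12 h under ribosomal centring and from 5 to 3 at 2 d under quantile normalization. From 1 d to 2 d it went from 5 to 2 with only these groups in the fit. The cause was not tested.

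Leaving out 1 array at a time, the counts against control ran from 0 to 1 at 6 h, 1 to 2 at 12 h, 2 to 3 at 1 d and 2 to 3 at 2 d, and were 0 in every case at 1 h, 4 d, 6 d, 8 d and 16 d. Against 1 h they ran from 3 to 4 at 12 h, 6 to 8 at 1 d and 4 to 5 at 2 d, and were 0 at 16 d. From 1 d to 2 d they ran from 1 to 5, with 1 without 1 d replicate 1, and from 2 d to 16 d from 5 to 6. Replicate numbers were not treated as pairs in the main fit. With the replicate block, Stab2 at 6 d (0.50) and Bmp2 at 1 d (-0.56) against control passed the threshold, and no call was lost. The dim probe sets (Vwf and the second of Clec4g) lie near background, where RMA values understate differences.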
